A study of Mus musculus with 22 samples.

Results

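The interferon-stimulated genes are a set of genes that cells switch on in answer to interferons. Here they were taken as 36 genes named by symbol, found through every probe of the array that carries 1 of those symbols. All 36 were found, among 19087 named genes, with 55 probes; 14 of them had several probes, at most 3. The lowest-numbered probe stands for a gene unless stated otherwise.

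Total RNA of the cord around the injury site was compared on 2-colour arrays, each with 1 mouse in Cy5 and another in Cy3. The groups were IκBα-dn mice (GFAP-IκBα-dn, heterozygous, on C57BL/6) that were naive or had a contusion of the thoracic cord 3 days, 3 weeks or 6 weeks earlier, and wild-type (WT) littermates of the same 4 kinds. All were females aged 3 to 4 months. In IκBα-dn mice the GFAP promoter drives a truncated, dominant-negative IκBα in astrocytes, so NF-κB is blocked in those cells, while the RNA came from every cell type of the segment. Each group held 3 mice, except WT mice at 3 weeks with 2, because 1 of 22 arrays was left out for labels that give both 3 days and 3 weeks for 1 mouse. Of the 21 arrays, 10 paired both genotypes at 1 time (naive 3, 3 days 2, 3 weeks 2, 6 weeks 3) and 11 paired 2 times of 1 genotype. The 3 mice of a group are separate animals by their labels. The p-values rest on 1 variance per probe, shared by all groups, which holds both the spread between animals and that between arrays.

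Interferons alpha, beta and gamma signal through receptors and Jak kinases to STAT and IRF factors. Type I interferons act largely at the interferon-stimulated response element (ISRE), where STAT2 and IRF9 take part, and interferon gamma at gamma-activated sites (GAS). The induced proteins sense viral RNA, block steps of viral replication, mark damaged vacuoles and load peptides for antigen presentation. In the injured spinal cord, infiltrating macrophages and resident microglia are known to carry such genes, and astrocytes can be both a source and a target of interferon.

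Where the members stand in the genome shows their families. By RefSeq (GRCm38.p6), Ifit1, Ifit2 and Ifit3 lie on chromosome 19, the 5 Oas and Oasl genes on chromosome 5, Gbp2 and Gbp3 on chromosome 3, and Psmb8, Psmb9 and Tap1 side by side on chromosome 17. Rsad2 (26442743 to 26456452) and Cmpk2 (26469117 to 26479837) are neighbours on chromosome 12. Promoter windows of 300 bases, from 250 before to 50 after the start site, were given for 29 of the 36 members and 33 of their start sites. The ISRE core GAAANNGAAA, searched on both strands (TTTCNNTTTC on the other), was present in a window of 16 of the 29 members (55.2%) and in 3.44% of all 32851 windows. The GAS core TTCNNNGAA, which reads the same on both strands, was present for 9 of the 29 members and in 8.3% of all windows. The motifs do not overlap within a window of those printed here, except that ISRE cores can overlap one another. A match describes the letters and does not show that a factor binds.

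Shown 5′ to 3′ on the strand of the gene, with ISRE and GAS cores in capitals, are the windows of the 4 members that differed between genotypes at 6 weeks (Gbp3, Ifih1, Irgm2 and Cmpk2), of Rsad2 as the neighbour of Cmpk2, and of Isg15 as the one with the most ISRE cores. They are from RefSeq, GRCm38.p6, at Gbp3 (chr3:142559794-142560093, plus strand), Ifih1 (chr2:62646206-62646505, minus strand), Irgm2 (chr11:58214727-58215026, plus strand), Cmpk2 (chr12:26468965-26469264, plus strand), Rsad2 (chr12:26456403-26456702, minus strand) and Isg15 (chr4:156200769-156201068, minus strand).
Gbp3: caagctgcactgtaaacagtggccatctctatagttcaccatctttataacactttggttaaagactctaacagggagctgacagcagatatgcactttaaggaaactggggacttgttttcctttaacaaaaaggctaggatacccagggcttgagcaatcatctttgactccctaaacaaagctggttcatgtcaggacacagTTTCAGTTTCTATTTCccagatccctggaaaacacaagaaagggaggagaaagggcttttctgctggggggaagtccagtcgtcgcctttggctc
Ifih1: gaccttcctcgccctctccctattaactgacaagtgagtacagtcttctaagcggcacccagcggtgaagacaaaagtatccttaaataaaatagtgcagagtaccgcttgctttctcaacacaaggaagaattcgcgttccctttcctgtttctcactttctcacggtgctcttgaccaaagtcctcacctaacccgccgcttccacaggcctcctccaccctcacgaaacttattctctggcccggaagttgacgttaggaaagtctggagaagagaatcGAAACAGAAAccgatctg
Irgm2: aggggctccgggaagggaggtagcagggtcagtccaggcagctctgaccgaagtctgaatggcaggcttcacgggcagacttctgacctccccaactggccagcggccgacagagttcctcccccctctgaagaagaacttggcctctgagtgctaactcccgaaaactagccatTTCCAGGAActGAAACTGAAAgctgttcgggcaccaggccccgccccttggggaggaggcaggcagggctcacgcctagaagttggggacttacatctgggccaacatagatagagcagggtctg
Cmpk2: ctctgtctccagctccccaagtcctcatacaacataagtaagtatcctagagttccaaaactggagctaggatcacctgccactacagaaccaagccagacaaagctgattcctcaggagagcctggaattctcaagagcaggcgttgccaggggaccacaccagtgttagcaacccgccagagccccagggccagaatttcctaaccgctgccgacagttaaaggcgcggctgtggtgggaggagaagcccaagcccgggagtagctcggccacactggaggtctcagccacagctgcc
Rsad2: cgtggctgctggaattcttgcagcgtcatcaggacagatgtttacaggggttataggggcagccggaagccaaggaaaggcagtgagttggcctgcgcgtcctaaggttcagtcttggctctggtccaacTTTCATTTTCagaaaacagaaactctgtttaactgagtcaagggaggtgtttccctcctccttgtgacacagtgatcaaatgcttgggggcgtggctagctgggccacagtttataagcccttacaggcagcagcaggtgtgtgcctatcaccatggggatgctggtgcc
Isg15: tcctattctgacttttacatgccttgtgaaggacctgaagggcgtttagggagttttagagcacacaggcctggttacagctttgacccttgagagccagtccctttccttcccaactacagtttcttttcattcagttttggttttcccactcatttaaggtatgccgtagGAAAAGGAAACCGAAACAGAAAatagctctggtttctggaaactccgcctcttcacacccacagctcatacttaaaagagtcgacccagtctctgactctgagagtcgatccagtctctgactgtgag

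The 3 cores of Isg15 overlapped and began at bases −78, −72 and −66 from the start site. Gbp3 had 2 overlapping cores on the other strand, and Irgm2 had a GAS core at −75 and an ISRE core at −64. In Ifih1 the core lay after the start site, at base 33. Rsad2 held 1 ISRE core and its neighbour Cmpk2 held neither motif in this window. At 6 weeks against naive in IκBα-dn mice, the 16 members with an ISRE core had a median log2 difference of 1.47 and 11 were called, and the 13 members with a window but no ISRE core had a median of 0.72 and 4 were called, 1 of them Cmpk2, which fell. Called means an adjusted p under 0.05, which 26.4% of all named genes reached in that comparison. In WT mice the medians at 3 weeks against naive were 1.32 with 7 called and 0.60 with 2 called, beside 1.2% of all genes. These counts rest on the lowest-numbered probe of each gene. Other probes would add Rsad2 and Irgm1 with a core at 6 weeks in IκBα-dn mice, and Ifit2, Oasl2, Irf1, Irf9 and Psmb8 without one. In WT mice at 3 weeks they would add Irgm1 with a core, and Oasl2, Irf1, Irf9 and Psmb8 without one. Whether the motif goes with the response was not tested.

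The values are the log2 ratios that the authors deposited, for 43379 probes. They were taken as Cy5 over Cy3, a direction tested on the 2 arrays of 3 days over naive: 16 of 16 measured markers of microglia and macrophages were above 0 on each. Differences between groups were fitted in limma with all 21 arrays at once, with 1 dye term and the correlation that shared mice give. A gene was called at a Benjamini-Hochberg adjusted p under 0.05 over all probes of the array. Array values in the text have the fitted dye effect taken out. Nfkbia, which encodes the native IκBα, differed between IκBα-dn and WT mice by −0.24 (SE 0.10, adjusted p = 1) when naive and by 0.45 (SE 0.10, adjusted p = 0.00481) at 6 weeks. Whether its 1 probe reads the transgene is not known here, so it does not check the labels.

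After contusion, many interferon-stimulated genes were higher than in naive cord in both genotypes. The largest called rises were of Iigp1 and Gbp3 in IκBα-dn mice at 6 weeks and of Iigp1 and Usp18 in WT mice at 3 weeks. In IκBα-dn mice, 15 of 36 rose and 1 fell at 3 days, 11 rose at 3 weeks, and 19 rose and 1 fell at 6 weeks. In WT mice none was called at 3 days, 11 rose at 3 weeks and 1 rose at 6 weeks. These counts moved with single mice and with the dye term: the 16 called in IκBα-dn mice at 3 days were 1 without naive IκBα-dn mouse 3 and 1 with no dye term, and the 1 in WT mice at 6 weeks was 8 without 3-week WT mouse 2 and 13 with a dye term per array code. Over all named genes, 6.82%, 0.702% and 26.4% were called in IκBα-dn mice at 3 days, 3 weeks and 6 weeks, and 1.92%, 1.2% and 0.791% in WT mice. The members' median log2 difference from naive was 0.85, 0.89 and 0.92 in IκBα-dn mice and 0.47, 0.89 and 0.57 in WT mice at 3 days, 3 weeks and 6 weeks, where the median of all named genes lay between −0.05 and 0.02. At 3 days in WT mice the count of 0 called stands beside 16 members at an unadjusted p under 0.05, 14 higher and 2 lower, in limma. In bulk RNA, fewer cells of a type and less RNA per cell cannot be told apart, and likewise more.

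**Figure D1:**
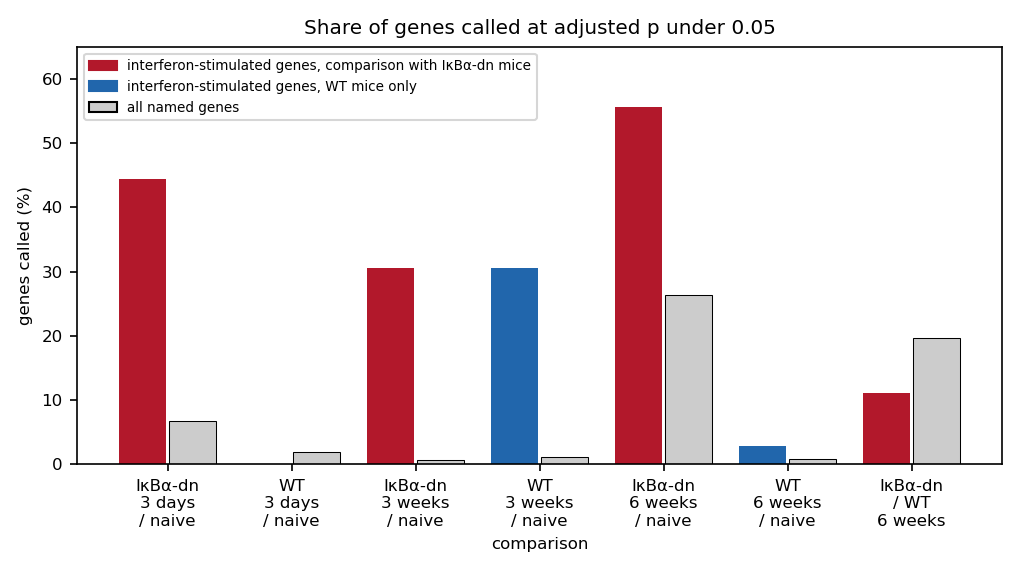
Percent of genes called at an adjusted p under 0.05 in each comparison (x axis: comparison, later time over naive or IκBα-dn over WT; y axis: percent of genes). Coloured bars are the 36 interferon-stimulated genes and grey bars all 19087 named genes. At 3 weeks 30.6% of the members were called in each genotype, against 0.702% (IκBα-dn) and 1.2% (WT) of all genes, while between genotypes at 6 weeks the members' share (11.1%) was below that of all genes (19.7%).

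Between neighbouring times few members were called, in comparisons where few or no genes of the array were called in WT mice. At 3 weeks against 3 days, 0 members were called in either genotype, where 0.346% of all genes were called in IκBα-dn mice and 0% in WT mice; at an unadjusted p under 0.05 in limma, IκBα-dn mice had 5 higher and 1 lower, and WT mice 13 higher. The median over the members was 0.15 in IκBα-dn mice (25 of 36 positive) and 0.56 in WT mice (32 of 36 positive), and −0.03 in WT mice without 3-week WT mouse 2. Ifit1, which binds viral RNA that lacks a proper cap, had the smallest p in WT mice (2.13, SE 0.42, adjusted p = 0.174). At 6 weeks against 3 weeks, 1 member was called in IκBα-dn mice, where 20.1% of all genes were called, and 0 in WT mice, where 0% of all genes were called. In WT mice 34 of 36 values at 6 weeks against 3 weeks were negative (median −0.29), but only 2 had an unadjusted p under 0.05, Rsad2 (−0.85, SE 0.39) and Ifit2 (−0.48, SE 0.23). In IκBα-dn mice 20 of 36 were positive (median 0.18).

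**Figure D2:**
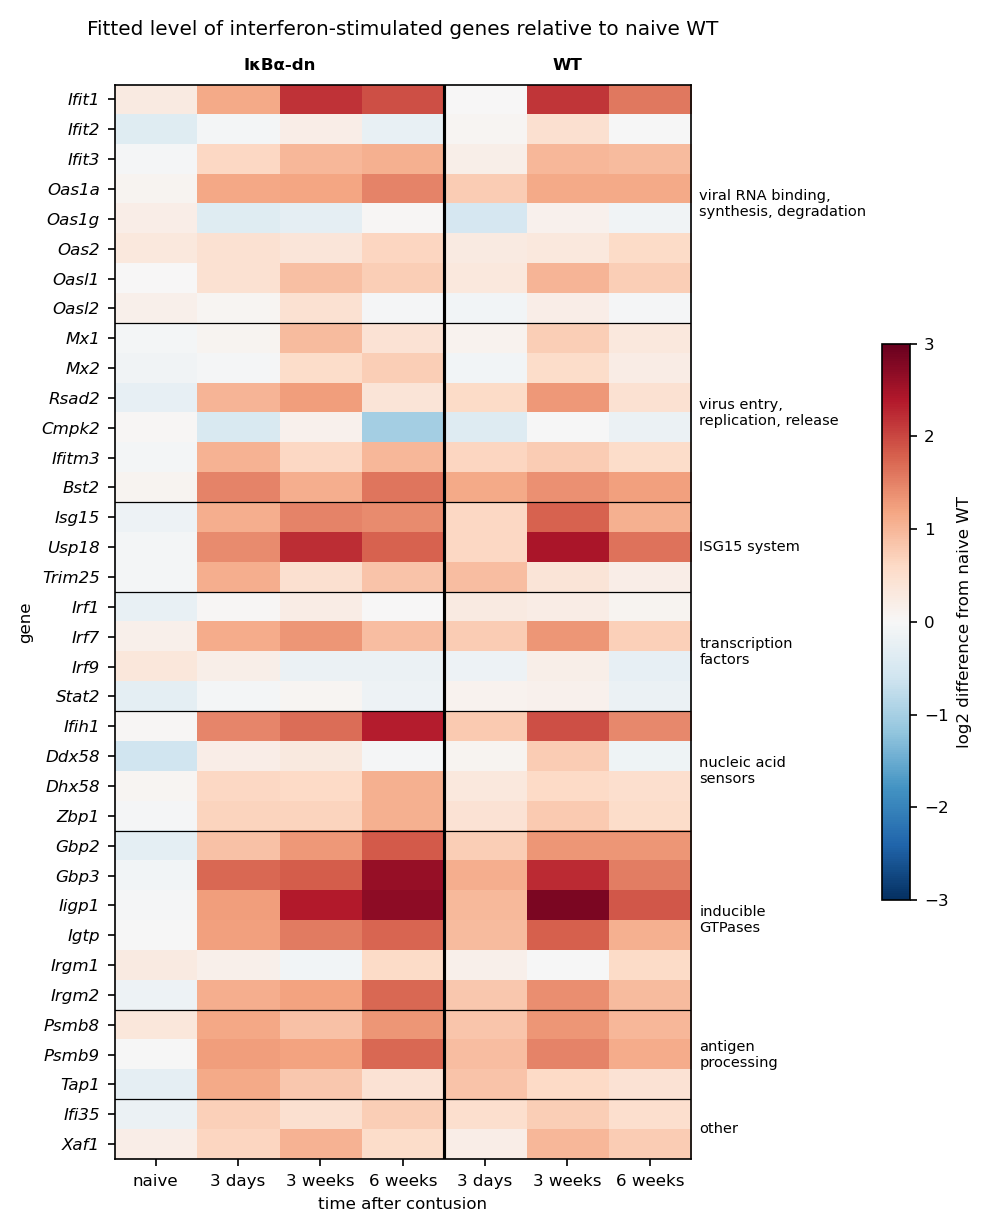
Fitted log2 level of each member relative to naive WT mice (colour, blue below and red above), with genes in rows by role and groups in columns by time after contusion, IκBα-dn left and WT right. The GTPases Iigp1 and Gbp3 stand 2.69 and 2.62 above naive WT mice in IκBα-dn mice at 6 weeks, and Cmpk2 in the same group has the lowest value, −1.02.

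Among the interferon-inducible GTPases, which attack vacuoles that hold pathogens, Iigp1 had log2 ratios to naive of 1.48, 1.88 and 2.77 on the single direct arrays of IκBα-dn mice at 3 days, 3 weeks and 6 weeks. In WT mice the ratios were 2.70, 1.90 and 1.52. These single arrays hold 1 mouse per time. From all arrays, the fit in WT mice gave 0.98, 2.82 and 1.86 at 3 days, 3 weeks and 6 weeks, another order than on the single arrays. The fit gave Iigp1 2.73 (SE 0.57, adjusted p = 0.00169) at 6 weeks in IκBα-dn mice and 2.82 (SE 0.62, adjusted p = 0.0357) at 3 weeks in WT mice, the largest called rises of the list in each genotype. The call in WT mice was lost in 19 of 31 alternatives, 18 of them with a mouse left out, with values from 1.74 to 4.07. Gbp3, a guanylate-binding protein, rose at every time in IκBα-dn mice, by 1.79, 1.90 and 2.69, and in WT mice at 3 weeks, by 2.24; in IκBα-dn mice at 3 weeks 19 of 31 alternatives lost the call. Gbp2, of the same family, rose by 2.13 (SE 0.30, adjusted p = 7.1e-05) at 6 weeks in IκBα-dn mice, and Irgm2 and Igtp, of the immunity-related GTPases, by 1.86 (SE 0.29) and 1.74 (SE 0.34). In all, 5 of the 6 GTPases rose at 6 weeks in IκBα-dn mice, where 13% of all named genes rose. At 3 weeks 4 of 6 rose in WT mice, where 1.13% of all named genes rose. Gbp2, Gbp3, Igtp and Irgm2 also rose in IκBα-dn mice at 3 days and 3 weeks, where 5.49% and 0.665% of all named genes rose. Irgm1 was not called on its first probe in any comparison.

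Of the genes that bind, make or degrade viral RNA signals, Oas1a was the member called most often, in 5 of the 6 comparisons with naive. Oas1a makes the 2-5A signal that activates RNase L, and its direct arrays read 0.75, 1.05 and 1.64 in IκBα-dn mice at 3 days, 3 weeks and 6 weeks, against 1.47, 0.81 and 0.85 in WT mice. All 6 ratios were above 0. It rose by 1.42 (SE 0.22, adjusted p = 0.000178) at 6 weeks in IκBα-dn mice and by 1.13 (SE 0.23, adjusted p = 0.0349) in WT mice, where it was the 1 member called, a call that 18 of 32 alternatives did not keep. Ifit1 rose at 3 weeks in both genotypes, by 1.91 (SE 0.38) in IκBα-dn mice and 2.15 (SE 0.41) in WT mice, with the call lost in 19 of 31 alternatives in IκBα-dn mice and in 4 of 31 in WT mice. Its paralog Ifit2 was not called on its first probe, and neither was Oas1g, with values from −0.57 to 0.13.

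The ISG15 system attaches a ubiquitin-like protein to others, and 2 of its 3 members rose in both genotypes at 3 weeks. Usp18, the protease that removes ISG15 and also dampens the type I receptor, gave 1.49, 2.68 and 1.48 on the direct arrays of IκBα-dn mice at 3 days, 3 weeks and 6 weeks and 1.77, 1.49 and 1.27 on those of WT mice. Each of these single arrays lay above naive, but the fit over all arrays gave 0.63 (SE 0.40, adjusted p = 0.502) in WT mice at 3 days. Its fitted rise at 3 weeks was 2.30 (SE 0.41, adjusted p = 0.0181) in IκBα-dn mice and 2.46 (SE 0.44, adjusted p = 0.0118) in WT mice. Isg15 itself rose by 1.66 (SE 0.36) in IκBα-dn mice and 1.78 (SE 0.39) in WT mice at that time, and the call in IκBα-dn mice was lost in 20 of 31 alternatives. Trim25, a ubiquitin ligase of the RNA-sensing pathway, rose in IκBα-dn mice at 3 days (1.16, SE 0.27, adjusted p = 0.0169) and 6 weeks (0.92, SE 0.27, adjusted p = 0.0181). In WT mice it had 0.92 (adjusted p = 0.0834) and 0.20 (adjusted p = 0.888), and between genotypes 0.18 (adjusted p = 0.982) and 0.65 (adjusted p = 0.0606).

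Of the 4 sensors of nucleic acids, Ifih1, which encodes the double-stranded RNA sensor MDA5, rose in IκBα-dn mice at 3 days (1.44, SE 0.33), 3 weeks (1.66, SE 0.32) and 6 weeks (2.32, SE 0.32, adjusted p = 5.46e-05), and in WT mice at 3 weeks (1.94, SE 0.35, adjusted p = 0.0124). Its second probe gave 0.44 and was not called at 6 weeks in IκBα-dn mice. Dhx58 and Zbp1 rose at 6 weeks in IκBα-dn mice, and Ddx58, which encodes RIG-I, was not called in any comparison. Among genes that act on virus entry and release, Bst2, which tethers budding virions, rose in IκBα-dn mice at 3 days (1.41, SE 0.35) and 6 weeks (1.53, SE 0.35). Of the antigen-processing genes, Psmb9, a subunit of the immunoproteasome, rose in IκBα-dn mice at 3 days (1.28, SE 0.28) and 6 weeks (1.73, SE 0.27) and in WT mice at 3 weeks (2.83-fold, SE 0.29 on the log2 scale), and Tap1, the peptide transporter, in IκBα-dn mice at 3 days (1.40, SE 0.40; lost in 21 of 31 alternatives). None of the 4 transcription factors of the list, Irf1, Irf7, Irf9 and Stat2, was called on its first probe. Irf7, the main amplifier of type I interferon, had 1.17 (SE 0.32, adjusted p = 0.125) at 3 weeks in IκBα-dn mice and 1.32 (SE 0.34, adjusted p = 0.0871) in WT mice.

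At 3 weeks the 2 genotypes had 9 called members in common, 81.8% of the 11 of each. They were Ifit1, Oas1a, Isg15, Usp18, Ifih1, Gbp3, Igtp, Irgm2 and Xaf1. Of all 19087 named genes, 134 were called in IκBα-dn mice and 229 in WT mice at that time. How many of those were shared was not counted, so the overlap cannot be called particular to the members. The counts at 3 weeks rested on few mice. The 2 WT mice shared no array. Mouse 2 read above both of its partners. The 36 genes had a median of 0.94 on its array over WT mouse 2 at 3 days. The median was −0.60 on the array that set IκBα-dn mouse 3 over it, with 31 of 36 genes below 0. These ratios cannot tell a high mouse from low partners. Without WT mouse 2 the count in WT mice was 0, and without WT mouse 1 it was 14. In IκBα-dn mice the count of 11 was 0 without naive mouse 2 or 3, 3-day mouse 2, 3-week mouse 1 or 2, or 6-week mouse 3.

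**Figure D3:**
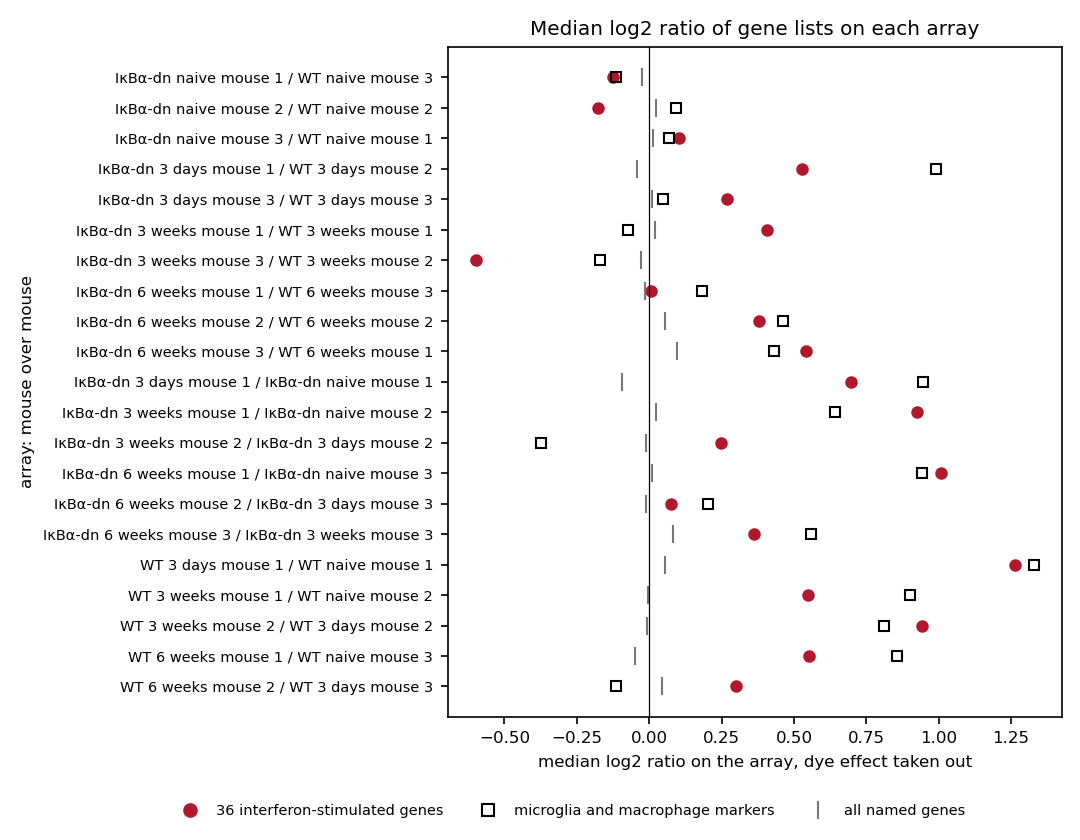
Median log2 ratio on each of the 21 arrays (x axis, dye effect taken out) of the 36 interferon-stimulated genes, of 16 markers of microglia and macrophages and of all named genes, with arrays in rows, named as 1 mouse over another. On the 3-week arrays between genotypes the members' medians were 0.41 and −0.60, with opposite signs, while the marker medians were −0.07 and −0.17.

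Markers of microglia and macrophages moved along with the injury response. Of 16 measured markers, 10, 4 and 14 rose in IκBα-dn mice at 3 days, 3 weeks and 6 weeks, and 6, 6 and 4 in WT mice. Over all named genes 5.49%, 0.665% and 13% rose in IκBα-dn mice at these times, and 1.76%, 1.13% and 0.713% in WT mice. On the 6 direct arrays over naive their median lay between 0.64 and 1.33, and that of the 36 genes between 0.55 and 1.26. Of 13 measured markers of T, B and NK cells, 4 rose at 6 weeks in IκBα-dn mice, where 13% of all named genes rose. Some were called elsewhere too, such as Cd3d in WT mice at 6 weeks (0.79, SE 0.17). Their part in the rise of interferon-stimulated genes was not tested.

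Between genotypes, members were called at 6 weeks, where Gbp3, Ifih1 and Irgm2 were higher and Cmpk2 lower in IκBα-dn mice (n = 3 mice each). These 4 of 36 are 11.1% of the members, less than the 19.7% of all named genes called in that comparison, of which 8.77% were higher and 11% lower. The median over the members was 0.23, with 29 of 36 positive, beside 0.05 over all genes. Of the 3 arrays that held both genotypes at 6 weeks, the list median was 0.01 for IκBα-dn mouse 1 over WT mouse 3, 0.38 for mouse 2 over mouse 2 and 0.54 for mouse 3 over mouse 1. So 1 pair of animals showed hardly any shift of the list as a whole. Markers of microglia and macrophages had medians of 0.18, 0.46 and 0.43 on these arrays, and 3 of 16 were called. On the same arrays, markers of T, B and NK cells had medians of 0.04, 0.39 and 0.48, and neutrophil markers 0.95, 1.35 and 0.81. Markers of endothelial cells (5 of 10 higher), fibroblasts (3 of 10 higher) and neurons (8 of 12 lower) also moved at 6 weeks. The part of any of these cell types in the members' values was not tested.

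**Figure D4:**
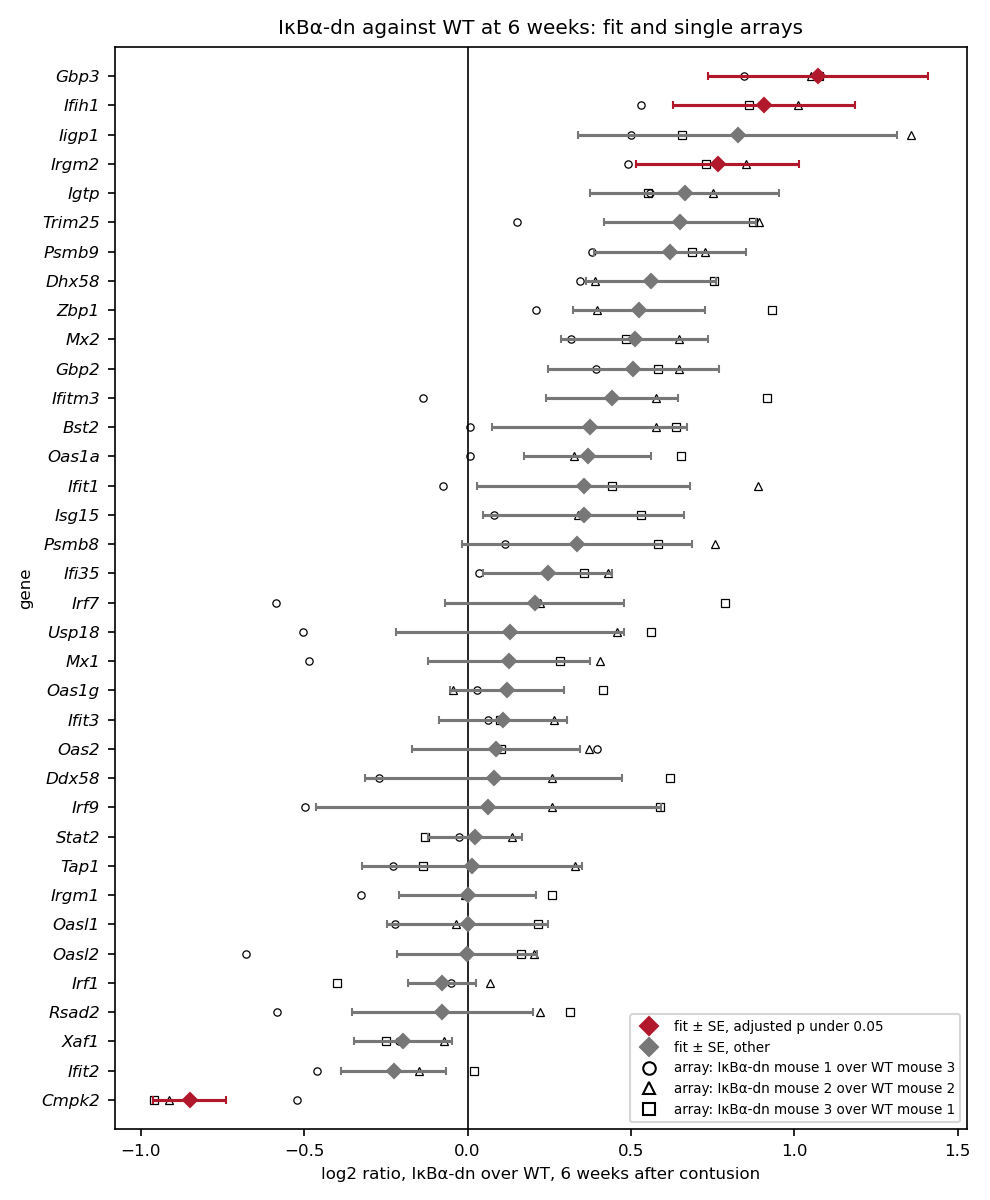
Log2 ratio of IκBα-dn over WT mice at 6 weeks (x axis) for each of the 36 genes (y axis, sorted). Diamonds with bars are the fit ± SE, red where the adjusted p was under 0.05, and open symbols are the 3 arrays that held both genotypes. Gbp3, Ifih1 and Irgm2 lie right of 0 on all 3 arrays and Cmpk2 left of 0 on all 3.

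Gbp3 read 0.85, 1.05 and 1.08 on the 3 arrays of IκBα-dn over WT mice at 6 weeks, in the order of IκBα-dn mice 1, 2 and 3. All were positive and close together, and the fit gave 1.07 (SE 0.34, 2.1-fold, adjusted p = 0.0333). Ifih1 read 0.53, 1.01 and 0.86, with a fitted difference of 0.91 (SE 0.28, adjusted p = 0.0295) on its first probe and −0.17 (SE 0.27, adjusted p = 0.738) on its second. Irgm2 read 0.49, 0.85 and 0.73, with a fit of 0.77 (SE 0.25, adjusted p = 0.0396). Iigp1, the GTPase with the largest response to injury, was also positive on every array (0.50, 1.36 and 0.66) but did not pass (0.83, SE 0.49, adjusted p = 0.272). The calls of Gbp3, Ifih1 and Irgm2 were lost with 9, 8 and 10 of the 23 mice left out 1 at a time, all 3 of them without naive WT mouse 3, 3-day WT mouse 3, 6-week WT mouse 1 or 2, naive IκBα-dn mouse 3, or any of the 6-week IκBα-dn mice. They were also lost with no dye term, with arrays centred and scaled, from the arrays with both genotypes alone and without the 3 of them at 6 weeks, with the sign kept in each. The mean of all probes also lost the call of Ifih1.

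Cmpk2 encodes a mitochondrial nucleotide kinase that is induced by interferon together with its neighbour Rsad2. It read −0.52, −0.91 and −0.96 on the arrays of IκBα-dn over WT mice at 6 weeks (IκBα-dn mice 1, 2 and 3), and −1.02 over naive, −0.73 over 3 days and −1.16 over 3 weeks on the arrays within IκBα-dn mice. All 6 arrays that held an IκBα-dn mouse at 6 weeks thus had it below the other mouse. These 6 arrays hold 3 such mice, so they are repeated readings of the same animals. In WT mice at 6 weeks the arrays read −0.16 over naive and 0.45 over 3 days. The fitted difference of IκBα-dn from WT mice was −0.85 (SE 0.11, 0.555-fold, adjusted p = 7.77e-05) and −0.69 (SE 0.17, adjusted p = 0.0105) on its second probe. Within IκBα-dn mice it fell by 1.06 against naive (SE 0.13; adjusted p = 1.81e-05) and by 1.16 against 3 weeks (SE 0.13; adjusted p = 2.91e-05). Before that time the arrays of IκBα-dn over WT mice lay near 0, with 0.00, 0.15 and 0.08 when naive, −0.24 and −0.11 at 3 days, and 0.33 and −0.16 at 3 weeks. At 3 days it was also below naive in IκBα-dn mice by −0.50 (SE 0.13, adjusted p = 0.0317), but 18 of 31 alternatives did not call it. WT mice had −0.38 (SE 0.13, adjusted p = 0.139). The 6-week call between genotypes was kept in all 33 alternatives scored for single members, with values from −1.06 to −0.77. The moderated F with a fold over 2 was not among them, and the difference of −0.85 lies short of that fold.

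The neighbour Rsad2, whose protein viperin makes a chain-terminating nucleotide, was not called in that comparison on any of its 3 probes. On its first probe it read −0.58, 0.22 and 0.31 on the arrays of IκBα-dn over WT mice at 6 weeks and had a fit of −0.08 (SE 0.28), so the arrays differed in sign. At 6 weeks against 3 weeks in IκBα-dn mice, 1 of its 3 probes fell (−1.17, SE 0.34, adjusted p = 0.0227) and the others were not called. Neuron markers had medians of −0.64, −0.90 and −0.93 on the same 3 arrays, where Cmpk2 was lower too, and their part in it was not tested.

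**Figure D5:**
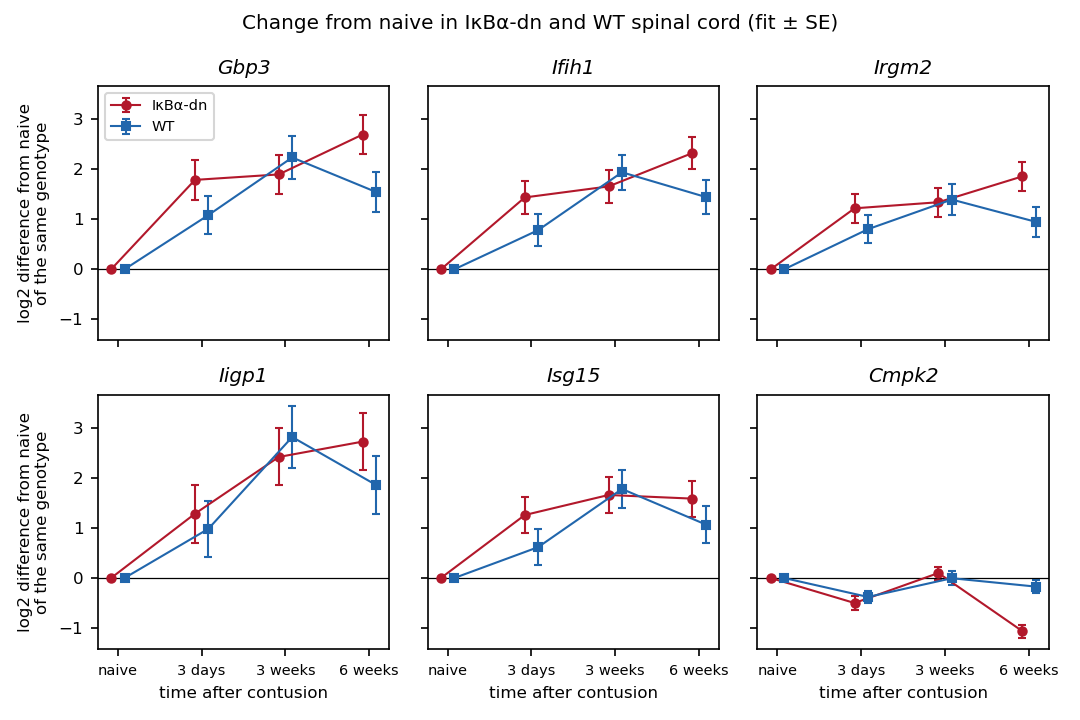
Log2 difference from naive mice of the same genotype (y axis, fit ± SE) at each time after contusion (x axis) for 6 members, in IκBα-dn mice (red circles) and WT mice (blue squares). Gbp3, Ifih1, Irgm2, Iigp1 and Isg15 lie above naive in both genotypes at every time, and Cmpk2 lies 1.06 below naive at 6 weeks in IκBα-dn mice and 0.17 below in WT mice.

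At the other times no member was called between genotypes, and of all genes 0% were called when naive, 0% at 3 days and 0% at 3 weeks. In naive mice the list median was −0.03 (15 of 36 positive), and 1 member had an unadjusted p under 0.05 in limma, Ifit2 (−0.36, SE 0.16). At 3 days it was 0.27, with 31 of 36 positive, and 3 members had an unadjusted p under 0.05, all higher in IκBα-dn mice. These were Ifit1 (1.12, SE 0.36, adjusted p = 0.575), Xaf1, which promotes cell death (0.43, SE 0.17), and Ifih1 (0.68, SE 0.31). On the 2 arrays of that time Ifit1 read 1.39 and 1.33. At 3 weeks the median was −0.10, no member had an unadjusted p under 0.05, and the 2 arrays disagreed in sign, as given above.

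The response to injury, the difference from naive, was also compared between genotypes. At 3 days and at 3 weeks 0 members and 0% of all genes (0% at each time) were called for a different response. In limma 0 members at 3 days and 1 at 3 weeks, Oas1g (−0.60, SE 0.26), had an unadjusted p under 0.05. At 6 weeks 5 members were higher and 1 lower at an unadjusted p under 0.05, and 1 member was called, Cmpk2, with a response lower by 0.89 on the log2 scale in IκBα-dn mice (−0.89, SE 0.15, adjusted p = 0.00188), where 9.57% of all genes were called. Its second probe gave −0.73 (SE 0.24, adjusted p = 0.0654). Gbp3 had a response difference of 1.15 (SE 0.46, adjusted p = 0.139), Irgm2 of 0.91 (SE 0.34, adjusted p = 0.113) and Ifih1 of 0.88 (SE 0.38, adjusted p = 0.176). The median response difference over the members at 6 weeks was 0.29, beside 0.02 over all genes.

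Different probes of a gene did not always read alike. Counting a member as called where any of its probes was called gave 28 of 36 in IκBα-dn mice and 1 in WT mice at 6 weeks, 15 and 16 at 3 weeks, and 21 and 0 at 3 days. The share of all named genes under this rule, which can only raise a count, was not computed. By probes, 31 of the members' 55 were called at 6 weeks in IκBα-dn mice, beside 11202 of all 43379. At 3 weeks 16 of 55 were called in each genotype, beside 275 of all probes in IκBα-dn mice and 464 in WT mice. The members added at 6 weeks in IκBα-dn mice were Ifit2, Oas2, Oasl2, Rsad2, Irf1, Irf9, Irgm1 and Psmb8. For Irf1, a factor that interferon gamma induces, 1 of 3 probes rose in IκBα-dn mice at 6 weeks by 1.42 (SE 0.19, adjusted p = 4.48e-05) and was higher than in WT mice (0.53, SE 0.17, adjusted p = 0.0342), where the other 2 gave −0.08 and 0.15. Irf9, the DNA-binding subunit of the type I interferon complex, gave 1.17 on 1 probe and −0.51 on the other at 6 weeks in IκBα-dn mice. Oasl2 gave 1.79 and −0.18. Which probe reads the full transcript was not tested.

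The genes upstream of the members were measured on the same arrays. Of 11 measured interferon genes, 0 were called between genotypes at 6 weeks or against naive at any time. At an unadjusted p under 0.05 in limma, 0 of them differed between genotypes at 6 weeks, and against naive at most 2 did in any 1 comparison. Among all named genes, 19.7% were called between genotypes at 6 weeks, with 8.77% up and 11% down in IκBα-dn mice. The counts of the lists below stand beside that share, and whether any list exceeded it was not tested. Of 6 receptor chains, 3 were higher in IκBα-dn than WT mice at 6 weeks: Ifngr1 (0.80, SE 0.14), Ifnar2 (0.75, SE 0.13) and Il10rb (0.94, SE 0.24). Of 6 kinases and STAT factors, 2 were higher, Stat5a (0.43, SE 0.10) and Stat4 (0.47, SE 0.15). Of 15 genes of sensing and induction, 6 were higher, among them Ikbke and Irf5 (0.47 and 0.78), and 1 was lower, Tbk1, the kinase that activates IRF3 (−0.94, SE 0.16, adjusted p = 0.000608).

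Of 12 negative regulators, 4 were higher, with Irf2 (0.85, SE 0.15), Ptpn2 (0.43, SE 0.08) and Tnfaip3, which restrains NF-κB (0.58, SE 0.14), having the smallest p, and 1 was lower. Of 55 other interferon-induced genes, 10 were higher and 1 was lower, which is 20% of them beside 19.7% of all named genes. Gbp5 (0.93, SE 0.19) and Cxcl9, a chemokine that interferon gamma induces (1.18, SE 0.27), were among the higher ones and Ifit1bl1 (−0.78, SE 0.13) was the lower one. The same 55 genes had 28 higher and 2 lower at 6 weeks against naive in IκBα-dn mice (54.5%, beside 26.4% of all genes) and 1 higher in WT mice (1.82%, beside 0.791%), and at 3 weeks 9 higher in IκBα-dn mice and 13 higher in WT mice. The chemokine gene Ccl5 had the smallest p of these at 3 weeks in WT mice (2.63, SE 0.40).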

How the data were processed

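RNA of spinal cord segments was hybridised to 2-colour Agilent mouse arrays. According to the methods, the authors scanned with a GenePix scanner, filtered spots, and normalized with lowess within and quantiles between arrays in limma. The log2 ratios were used as deposited; their scale and direction are not stated and were taken as log2 of Cy5 over Cy3. Array SDs ran from 0.37 to 0.74 and medians from −0.08 to 0.05. Spot intensities were not used, so the number of mice limits the precision.

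Group differences were fitted in limma 3.58.1 (R 4.3.3) on 21 arrays of 23 mice, with Cy5 group minus Cy3 group, 1 dye term and a variance share of 0.43 for shared mice (residual degrees of freedom 13, prior 3.24). P-values were adjusted by Benjamini-Hochberg over 43379 probes within each comparison. The fit was run on data simulated with normal errors under its own design, dye term and correlation, which cannot test those assumptions. Probes were named through the platform's table: 33653 had 1 symbol, 56 several and 9670 none. The members and gene lists were chosen with earlier results of these data known. Values were given in full for members called between genotypes or in a response (up to 8 by p) and for the 5 largest called rises and falls after injury; where none was called, the 3 with the smallest p were given as values. Of each pathway list, up to 3 called genes with the smallest p were named. Alternatives were arrays taken as independent, other dye terms, a replicate block, scaled arrays, the doubtful array included, the mean of all probes, other array subsets, a moderated F, and each mouse left out. Figures used matplotlib 3.10.9 in Python 3.11.15.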

Additional observations from a re-analysis of the deposited data

Results flagged for a closer look

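Cmpk2 had a different response to injury in the 2 genotypes by the test of that difference. Its change from naive at 6 weeks was −1.06 in IκBα-dn mice and −0.17 in WT mice, a difference of −0.89 (SE 0.15, adjusted p = 0.00188 by limma), and the 3 arrays with both genotypes at 6 weeks all had it lower in IκBα-dn mice. The response call of Cmpk2 was lost in 1 of 32 alternatives, the fit with no dye term, and its second probe was not called for this response. No other member was called in its response at 3 days, 3 weeks or 6 weeks, where Gbp3 had a larger difference at 6 weeks with a larger error (1.15, SE 0.46, adjusted p = 0.139).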

How the results depend on the processing

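No called value of a named member changed sign under any alternative. The 6-week call of Cmpk2 between genotypes was kept in all 33 alternatives scored for single members. The rises of Iigp1, Gbp3, Ifih1, Gbp2 and Irgm2 and the fall of Cmpk2 at 6 weeks against naive in IκBα-dn mice were kept in all 32. The moderated F was scored for counts only, and the genotype difference of Cmpk2 (−0.85) lies short of its fold over 2. Counts of members called moved as follows, and the cause was not tested. With arrays taken as independent, 8 members differed between genotypes at 6 weeks, 1 was called in WT mice at 3 days against naive, 1 and 2 in IκBα-dn mice at 3 weeks against 3 days and 6 weeks against 3 weeks, and 2 in the response at 6 weeks. With no dye term the counts were 1 between genotypes at 6 weeks, 0 in the response at 6 weeks, 1 and 1 in IκBα-dn mice at 3 days and 3 weeks against naive, and 4 and 0 in WT mice at 3 weeks and 6 weeks. With a dye term per array code, 10 and 0 were called in IκBα-dn mice at 3 days and 3 weeks, and 4, 6 and 13 in WT mice at 3 days, 3 weeks and 6 weeks. Centred and scaled arrays gave 1 between genotypes and 2 in WT mice against naive at 6 weeks. The arrays with both genotypes alone gave 2 at 6 weeks. Reading the array of conflicting labels as 3 weeks gave 9 in WT mice at 6 weeks. With the moderated F at an FDR under 1% and a fold over 2, 1 and 1 differed between genotypes at 3 days and 6 weeks, 9 and 12 were called in IκBα-dn mice at 3 days and 6 weeks, 1 and 9 in WT mice at 3 days and 6 weeks, and at 3 weeks against 3 days 2 in IκBα-dn and 5 in WT mice. Chosen after seeing the data, the fit without the 3 arrays of both genotypes at 6 weeks gave 1 between genotypes and 0 in WT mice at 6 weeks, and counting any probe gave 2 in IκBα-dn mice at 6 weeks against 3 weeks. With a replicate block, 6 and 0 members were called in IκBα-dn mice at 3 days and 3 weeks, 3 and 0 in WT mice at 3 weeks and 6 weeks, and 3 in IκBα-dn mice at 6 weeks against 3 weeks, and the 6-week genotype calls of Gbp3 and Irgm2 were lost. By their labels, samples share only a number. The mean correlation of deviations was −0.107 over 11 pairs of the same number and time, 2 of them over 0.1. Some of these pairs lie on 1 array, whose ratio sets their deviations against each other. The correlation therefore cannot show whether mice of the same number share a block. Leaving out 1 mouse at a time gave 1 to 8 between genotypes at 6 weeks (8 without 3-day WT mouse 1 or 3-week WT mouse 2) and 1 to 4 in the response. Against naive it gave 1 to 18, 0 to 13 and 17 to 22 in IκBα-dn mice, and 0 to 9, 0 to 14 and 0 to 8 in WT mice, at 3 days, 3 weeks and 6 weeks. The 1 was without naive IκBα-dn mouse 3, the 9 without 3-day WT mouse 2 and the 8 in WT mice without 3-week WT mouse 2. At 3 weeks against 3 days it gave 0 to 2 in IκBα-dn and 0 to 1 in WT mice, and at 6 weeks against 3 weeks 1 to 3 in IκBα-dn mice. Of 17 list medians 7 changed sign somewhere; between genotypes at 3 weeks it was −0.59 without WT mouse 1 and 0.39 without WT mouse 2. Where leaving out a mouse left a lone one in its group, the fit assumed that it varies as the other groups do. Spot signal over background was not used, so dim probes could not be set apart.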

Other observations

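The array left out for its labels set WT mouse 3 of 6 weeks over a WT mouse 3 labelled both 3 days and 3 weeks. With the dye effect of the other arrays taken out, the 36 genes had a median log2 ratio of 0.13 on it, with 26 above 0, beside −0.01 over all named genes. Ifit1 read 0.30, Ifih1 0.25, Cmpk2 0.09, Gbp3 0.01, Irgm2 −0.04 and Iigp1 −0.18.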
